A study of Mus musculus with 15 samples.

Results

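The constitutive parts of the proteasome were compared across 5 sorted mouse epithelia in 38 genes. They comprised the 7 alpha subunits and the 4 non-catalytic beta subunits of the 20S ring, 17 subunits of the 19S cap, 5 chaperones of 20S assembly, 3 chaperones of 19S assembly, the alternative cap Psme4 and the regulator Psmf1. Genes were chosen by name, with earlier results of these data known, and the exchangeable catalytic subunits were left out. All 38 were found by their identifiers among the 50600 genes of the deposited tables, and all 38 passed the filter on low counts.

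The epithelia were medullary thymic epithelial cells (mTEC), cortical thymic epithelial cells (cTEC), skin, lung and colon epithelium, all from untreated male C57BL/6J mice aged 8 weeks. Each group had 3 RNA-seq libraries, and per the series' design text each library came from sorted cells pooled from 5 mice. The study set out to explain differing MHC class I levels on epithelia, and the proteasome makes the peptides that MHC class I displays. A KAPA RNA Stranded PolyA preparation gave the libraries of mTEC, cTEC and skin, and a KAPA RNA HyperPrep PolyA preparation gave those of lung and colon. Where lung or colon is set against mTEC, cTEC or skin, the effects of kit and tissue cannot be told apart, and mTEC and cTEC against skin is the comparison of thymic with extrathymic cells inside a single kit.

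Libraries held 12946533 to 41978665 reads in genes. Skin replicate 1 stood apart, with 46.9% of its reads outside genes, against 24.2% in the lowest library. Over the 38 genes the median coefficient of variation between replicates was 7.22% in mTEC, 8.61% in cTEC, 14.3% in skin, 5.34% in lung and 8.57% in colon. The summed markers of cTEC, skin, lung and colon were each highest in the group of that label. The mTEC regulators Aire and Fezf2 were highest in mTEC, but the summed mTEC list was highest in colon, through the claudins Cldn4 and Cldn3. Skin had means of 7.28 CPM for Krt8 and 7.75 CPM for Krt18, keratins of simple epithelia. Markers of other cells also differed. The 10 thymocyte markers summed to 36.5 to 62.9 CPM in mTEC and 99.3 to 141 CPM in cTEC, against 1.94 to 7.77 CPM in skin, lung and colon. The 5 fibroblast markers reached 1211 to 7329 CPM in skin and 879 to 1142 CPM in lung, against 117 to 139 CPM in mTEC. The 5 myeloid markers reached 1747 to 3289 CPM in lung. Their part in the results was not tested. CPM here are gene reads scaled to library size after TMM normalisation.

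The proteasome is the main protease of the cytosol and nucleus. Its 20S core is a barrel of stacked rings in which alpha subunits form the gate and beta subunits the wall, and catalytic beta subunits sit inside. The 19S cap binds ubiquitin-tagged proteins, removes the ubiquitin chain and threads the protein into the core, its base holding the ATPase ring and its lid the deubiquitinase. Dedicated chaperones build both parts and are absent from the finished particle, and the new core degrades some of the 20S chaperones, Pomp among them. In thymic epithelium, catalytic subunits are exchanged for the immunoproteasome and, in cTEC, for the thymoproteasome subunit Psmb11, while the ring subunits described here are shared by all of these cores.

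Promoter windows of 300 bases, from 250 bases before to 50 bases after the transcript start, were read from RefSeq (GRCm38.p6) for 32 of the 38 genes, in 34 windows. The motif CCGGAAG, a core site of ETS factors, was found on either strand in 44.1% of these windows, that is in 15 windows of 14 genes, and in 8.86% of all 32851 windows of the table. CCAAT, a general promoter element, was found in 32.4% of the 34 windows and in 37.4% of all windows. TGACNNNGC, the core of the antioxidant response element bound by NFE2L1 and NFE2L2, was found in 11.8% of the 34 windows and in 12.4% of all. A match is a run of letters, not a shown binding site. The windows of Psmg4 (chr13:34162714-34163013, plus strand), Psme4 (chr11:30771525-30771824, plus strand), Psmc1 (chr12:100109952-100110251, plus strand) and Pomp (chr5:147860378-147860677, plus strand) are given because the first pair differed most between the epithelia, Psmc1 stood out in lung, and Pomp carried CCGGAAG on both strands. Capitals mark matches to the 3 motifs, each searched on both strands.
Psmg4: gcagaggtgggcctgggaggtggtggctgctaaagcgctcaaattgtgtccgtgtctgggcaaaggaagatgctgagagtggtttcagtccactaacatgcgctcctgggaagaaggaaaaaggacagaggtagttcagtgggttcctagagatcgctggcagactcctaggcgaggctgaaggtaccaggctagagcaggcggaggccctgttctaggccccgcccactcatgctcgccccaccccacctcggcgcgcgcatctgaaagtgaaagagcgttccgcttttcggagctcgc
Psme4: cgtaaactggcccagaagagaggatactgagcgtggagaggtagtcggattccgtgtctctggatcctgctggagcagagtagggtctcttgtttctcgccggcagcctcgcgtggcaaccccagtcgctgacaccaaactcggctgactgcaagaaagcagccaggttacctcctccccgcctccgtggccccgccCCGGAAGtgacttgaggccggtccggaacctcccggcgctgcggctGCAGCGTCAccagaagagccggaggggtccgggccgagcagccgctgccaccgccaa
Psmc1: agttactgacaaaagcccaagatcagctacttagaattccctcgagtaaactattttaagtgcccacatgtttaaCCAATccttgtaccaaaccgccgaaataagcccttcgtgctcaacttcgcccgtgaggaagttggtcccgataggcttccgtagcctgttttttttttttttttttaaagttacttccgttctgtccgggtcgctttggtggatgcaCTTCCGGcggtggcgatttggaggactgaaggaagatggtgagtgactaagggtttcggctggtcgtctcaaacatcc
Pomp: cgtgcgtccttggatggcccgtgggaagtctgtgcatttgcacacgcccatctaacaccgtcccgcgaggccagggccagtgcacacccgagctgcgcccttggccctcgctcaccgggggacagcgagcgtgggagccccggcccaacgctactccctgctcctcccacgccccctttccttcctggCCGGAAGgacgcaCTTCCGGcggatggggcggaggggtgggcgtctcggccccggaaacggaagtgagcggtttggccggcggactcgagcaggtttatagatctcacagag
The Psmg4 window held none of the 3 motifs, which says only that these letters are not in it. Psme4 held CCGGAAG upstream of the start and TGACNNNGC across it, Psmc1 held CCAAT and, nearer the start, CCGGAAG, and Pomp held CCGGAAG in both directions side by side.

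The 38 genes were spread over a narrow range of levels between epithelia. The highest group mean was 1.77 times the lowest for the median gene of the 38, and 4.33 times for the median of 13595 other genes that had reads in every group and at least 4 CPM in a group. The ratio was under 2 for 30 of the 38 genes, and for 18.3% of the others. The other genes were not matched to the 38 in level, and a low mean in a group makes the ratio large. The extremes were Psmd6, a lid subunit of the cap, at 1.196, and Psmg4, a 20S chaperone, at 6.24. The edgeR F-test over the 5 groups called 29 of the 38 genes at an adjusted p under 0.05, against 90.6% of the 19107 genes tested. The 9 genes not called, with adjusted p from 0.0536 to 0.398, were Psma2, Psmc3, Psmd1, Psmd6, Psmd12, Psmd13, Psmd14, Psmg3 and Psmd5. Skin had the highest mean of 14 genes, cTEC of 8, colon of 7, lung of 6 and mTEC of 3.

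**Figure D1:**
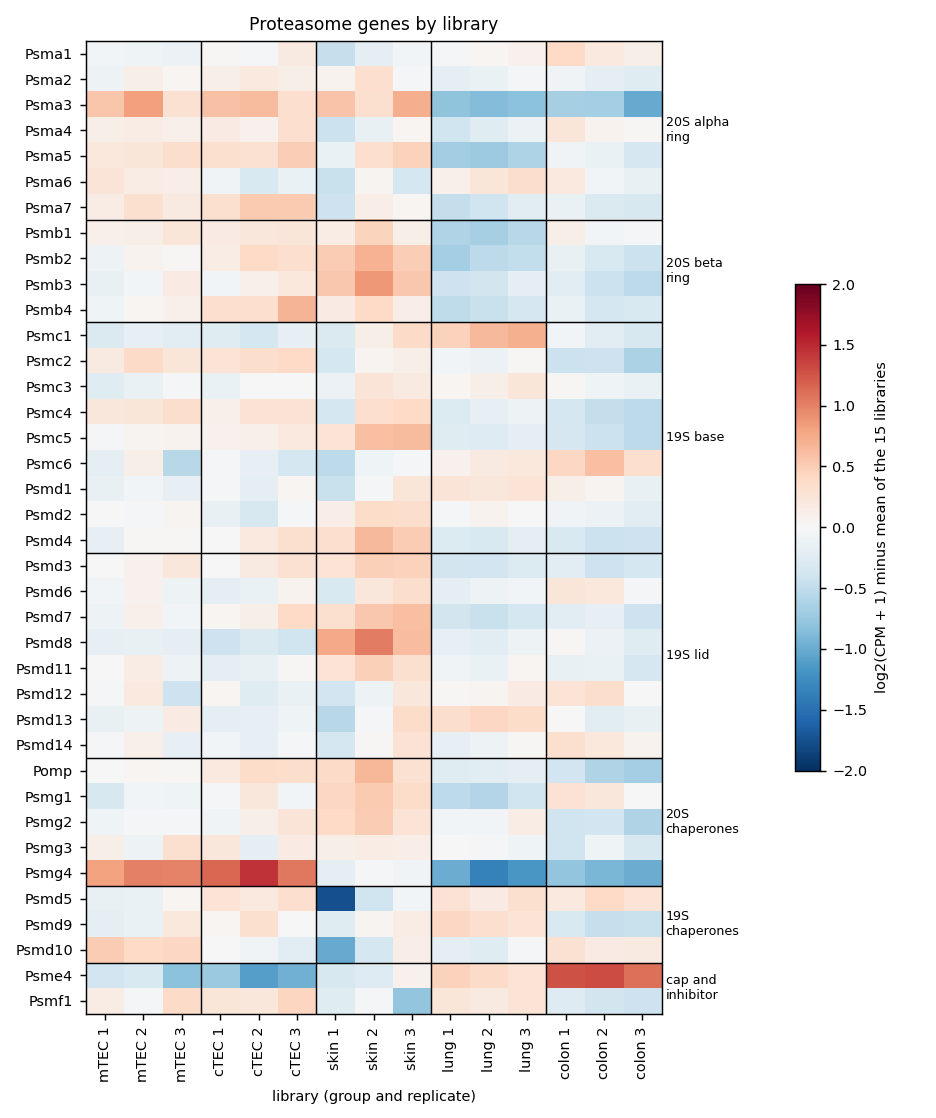
Level of each of the 38 genes in the 15 libraries, as log2(CPM + 1) minus the gene's mean over the libraries, with genes ordered by role and libraries by group. Psmg4 is high in the 6 mTEC and cTEC libraries, Psme4 in the 3 colon libraries and Psmd8 in the 3 skin libraries, while most other genes stay near their mean.

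Per transcript length, in RSEM TPM, the order of the genes was similar in all groups. Spearman's rho between the group means of the 38 genes ran from 0.837 for skin and colon to 0.979 for mTEC and cTEC. Psmb4, a beta subunit of the core wall, had the highest TPM of the 38 in every group, with 406 ± 29.5 in mTEC, 571 ± 132 in cTEC, 329 ± 16.3 in skin, 257 ± 25.0 in lung and 223 ± 17.96 in colon (SD, n = 3 each). Psme4 was lowest in mTEC and cTEC, with 17.9 ± 4.17 and 12.4 ± 2.67 TPM. In lung the lowest was Psmg4, with 13.2 ± 2.16 TPM.

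Thymic epithelium, the mean of mTEC and cTEC on the log2 scale, differed from the mean of skin, lung and colon in 17 of the 38 genes, with 13 higher and 4 lower. Of all genes tested 64.2% were called, 37.3% higher and 26.9% lower, so the share of the 38 that changed was below the background. The median log2 fold change was 0.11 over the 38 genes and 0.14 over all genes tested. The 20S ring had 7 of 11 genes higher and 0 lower in edgeR, and 0 lower in DESeq2 as well. Among the 7, Psma3 was at 0.93 by read counts but at 0.09 by RSEM expected counts (edgeR, adjusted p = 0.409). The 19S cap had 3 of 17 higher and 3 lower, and the assembly chaperones 2 of 8 higher. These counts moved with the scaling. DESeq2 gave 18 of the 38 genes higher and 3 lower. Upper quartile scaling, which moved the median of all genes to 0.30, gave 19 higher and 3 lower. With it the cap had 6 higher and 2 lower. Without skin replicate 1 the cap had 3 higher and 6 lower. Psmg4, Psma7 and Psmc2 of the 17 called genes had all 6 thymic libraries on 1 side of all 9 others. The share of all genes with such a separation was not counted, so whether this is few or many is not known. For all 21 genes that were not called, an approximate 95% interval of the log2 fold change lay inside a 1.5-fold change either way. It used a normal quantile, so it is narrower than an interval matched to the F-test. The gene nearest the bound was Psmd10, with an upper limit of 0.56, and a wider interval could cross it.

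Inside the single kit, thymic epithelium over skin gave another balance, with 7 genes higher and 14 lower, against 61.2% of all genes called, 35.6% higher and 25.6% lower. The median was -0.05 over the 38 genes and 0.21 over all. Most of the lower genes were cap subunits, with 8 of 17 lower and 1 higher, while the 20S ring had 2 of 11 higher and 2 lower. Without skin replicate 1 there were 2 genes higher, Psmg4 and Psmf1, and 16 lower, 10 of them cap subunits, and the median was -0.18. Skin also had more fibroblast and endothelial marker RNA, with all 5 fibroblast and all 4 endothelial markers lower in thymic epithelium, and the part of those cells in these levels was not tested. In bulk RNA, fewer cells of a type and less RNA per cell cannot be told apart.

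Between mTEC and cTEC only Psmb4 passed, and it was lower in mTEC, which is 1 of 38 genes against 24.7% of all genes tested, 15.2% higher and 9.45% lower. No gene was higher in edgeR; at an unadjusted p under 0.05, 3 were higher (Psmd10, Psma6 and Psme4) and 3 lower (Pomp, Psmb2 and Psmb4), and DESeq2 called those 3 higher. The median log2 fold change of the 38 genes was -0.08, against 0.07 over all genes. The same approximate 95% interval lay inside a 2-fold change for 36 of the 37 genes not called, and inside a 1.5-fold change for 32. A wider interval could lower these counts. Lung over colon gave 7 genes higher and 5 lower, against 58.6% of all genes called, 30.4% higher and 28.3% lower. The median was -0.03 over the 38 genes and 0.00 over all. The 3 lung and 3 colon libraries did not overlap for any of the 12 called genes, nor for some that were not called, such as Psmc3 and Psmd10. The share of all genes without overlap was not counted. In lung 3 genes of the 20S ring and no cap gene were lower, and 3 cap genes and no ring gene were higher.

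**Figure D2:**
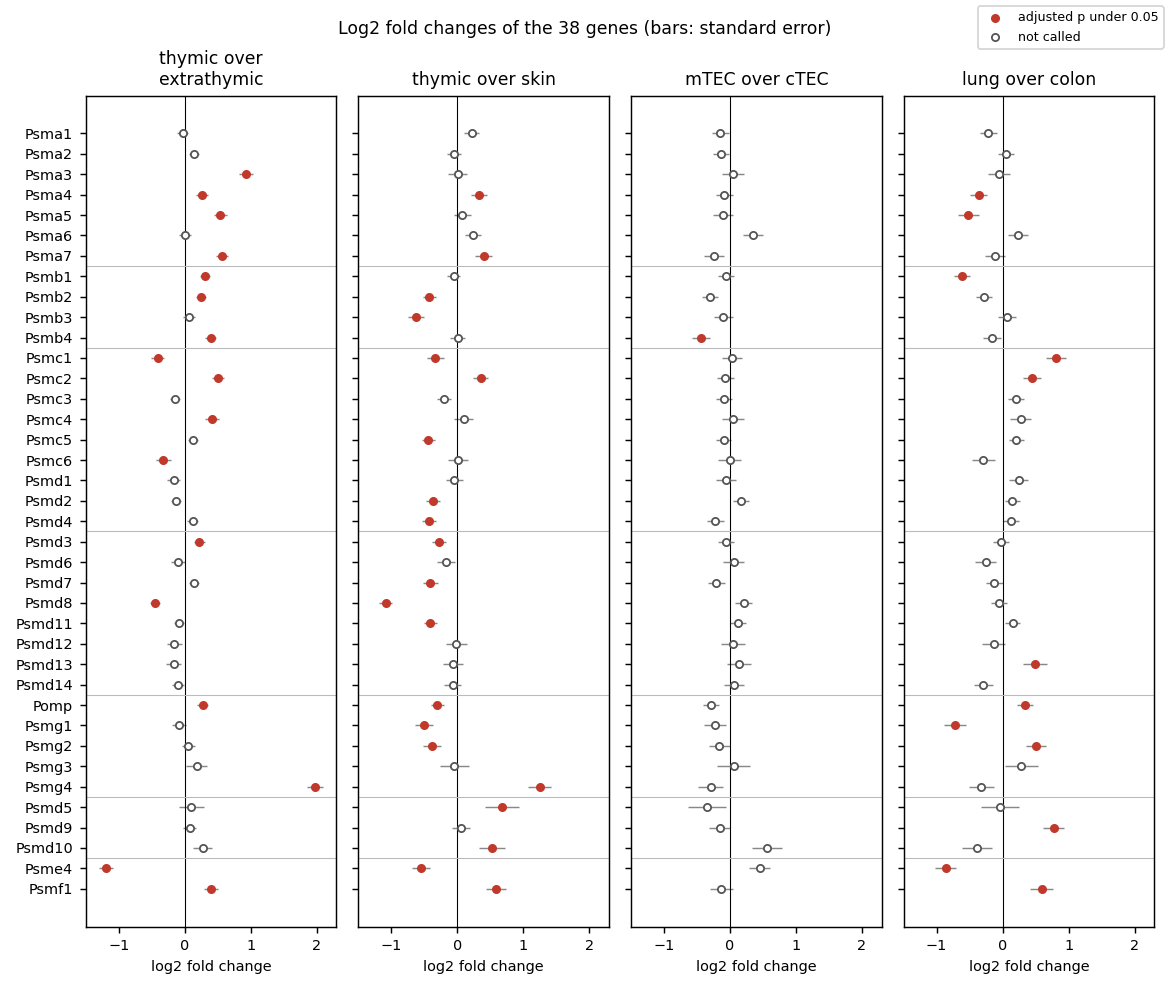
Log2 fold change of each of the 38 genes in the 4 comparisons, with genes ordered by role, bars for the standard error and filled points for an adjusted p under 0.05. Thymic over extrathymic has Psmg4 at 1.97 and Psme4 at -1.20, thymic over skin has Psmd8 at -1.09, and mTEC over cTEC has a single filled point, Psmb4 at -0.44.

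When tested against a 1.5-fold change rather than against no change, few genes passed. Thymic over extrathymic epithelium kept Psmg4 and Psma3 as higher and Psme4 as lower, against 41.6% of all genes. The fold change of Psma3 was 0.93 on the log2 scale by read counts but 0.09 by RSEM expected counts. Thymic over skin had Psmg4 higher and Psmd8 lower, against 43.2%. The mTEC over cTEC comparison had none, against 12.2%, and lung over colon had Psme4 lower, against 44.5%.

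Among the alpha ring, whose tails form the gate of the core, Psma7 had the clearest thymic excess. It had 150, 170 and 154 CPM in mTEC, 170, 195 and 196 CPM in cTEC, 102, 149 and 140 CPM in skin, 96.8, 103 and 117 CPM in lung and 124, 111 and 108 CPM in colon. The lowest thymic library stood just above the highest skin library. The log2 fold change over the extrathymic groups was 0.56 ± 0.09 (SE; adjusted p = 8.74e-05, edgeR), and over skin it was 0.40 ± 0.13 (adjusted p = 0.0141). Without skin replicate 1 the value over skin was 0.25 (adjusted p = 0.0946). Psma1, Psma2 and Psma6, the alpha subunits that were not called between thymic and extrathymic epithelium, had group means from 87.7 to 131 CPM.

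Psma4 had 65.0, 72.6 and 78.6 CPM in lung, against 102, 89.7 and 87.0 CPM in colon. All lung libraries were below all colon libraries, and the log2 fold change was -0.37 ± 0.14 (adjusted p = 0.0306), a call lost without lung replicate 1, lung replicate 2 or colon replicate 1, at -0.37 to -0.29. Psma5 had 22.9, 22.6 and 24.4 CPM in lung, against 36.1, 34.3 and 29.7 CPM in colon, and its log2 fold change was -0.52 ± 0.15 (adjusted p = 0.00886).

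For Psma3 and Psma5 the deposited tables differed in a way that followed the kit. The read counts keep reads that map to a single place, while RSEM also shares out reads that map to several. Psma3 had 62.3, 75.4 and 52.4 CPM in mTEC, 64.0, 66.3 and 53.6 CPM in cTEC, 63.2, 52.8 and 70.6 CPM in skin, 23.8, 22.6 and 23.4 CPM in lung and 26.1, 26.1 and 20.5 CPM in colon. The 9 libraries of the first kit stood far above the 6 of the second. Its log2 fold change of thymic over extrathymic epithelium was 0.93 ± 0.10 (adjusted p = 1.86e-06) by read counts and 0.09 (adjusted p = 0.409) by RSEM expected counts. Read counts were 0.575, 0.568 and 0.600 of the RSEM estimate in mTEC, cTEC and skin, and 0.239 and 0.228 of it in lung and colon. Psma5 had ratios of 0.585, 0.572 and 0.570 in mTEC, cTEC and skin, and 0.447 and 0.448 in lung and colon, and its thymic log2 fold change was 0.54 ± 0.10 (adjusted p = 2.08e-04) by read counts and 0.29 (adjusted p = 0.0135) by RSEM. No other gene of the 38 had a ratio that differed by more than 1.2 times between the kits. With RSEM, 12 genes were higher and 5 lower.

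**Figure D3:**
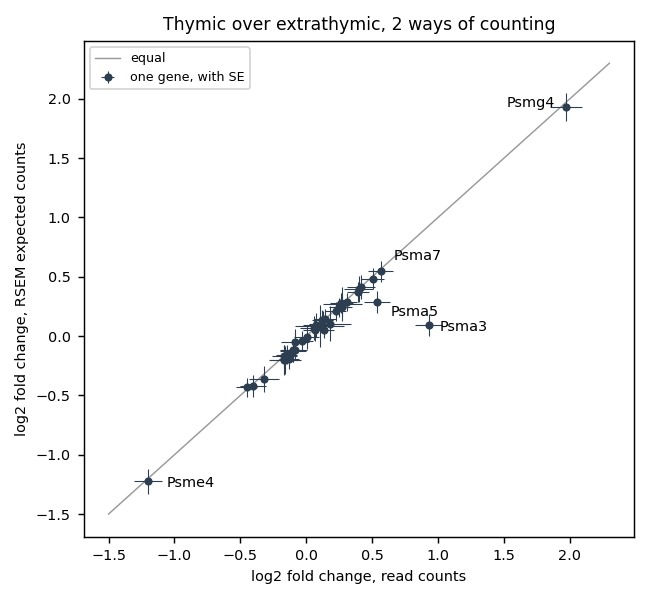
Log2 fold change of thymic over extrathymic epithelium by read counts (x axis) and by RSEM expected counts (y axis) for the 38 genes, with standard errors and the line of equal values. All genes lie near the line except Psma3, at 0.93 by read counts and 0.09 by RSEM, and Psma5, at 0.54 and 0.29.

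Among the beta subunits, Psmb1, Psmb2 and Psmb4 were higher in thymic than in extrathymic epithelium and Psmb3 was not called. Inside the single kit, against skin, Psmb2 was lower in thymic epithelium, with no overlap between libraries, and Psmb1 and Psmb4 were not called. Psmb4 had 152, 167 and 174 CPM in mTEC, against 204, 205 and 260 CPM in cTEC. The groups did not overlap, and the log2 fold change was -0.44 ± 0.13 (adjusted p = 0.0259). The call was lost without mTEC replicate 1, mTEC replicate 2 or cTEC replicate 3, with values from -0.44 to -0.32. Psmb3, another beta subunit, had 60.2, 63.8 and 74.8 CPM in mTEC and 63.9, 71.9 and 77.6 CPM in cTEC, against 97.6, 123 and 97.1 CPM in skin. All skin libraries stood above all thymic libraries, and the log2 fold change over skin was -0.62 ± 0.12 (adjusted p = 4.51e-04). Psmb1 had 100.1, 95.4 and 104 CPM in lung, against 165, 146 and 148 CPM in colon, a log2 fold change of -0.62 ± 0.12 (adjusted p = 3.61e-04).

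In the base of the 19S cap, the ATPase Psmc1, whose tail helps to open the gate of the core, was set apart by lung. It had 88.2, 95.9 and 92.8 CPM in mTEC, 91.3, 84.8 and 96.5 CPM in cTEC, 88.4, 117 and 140 CPM in skin, 149, 169 and 177 CPM in lung and 104, 92.7 and 86.0 CPM in colon. All lung libraries stood above all others. The log2 fold change of lung over colon was 0.81 ± 0.15 (adjusted p = 3.21e-04), and that of thymic over extrathymic epithelium was -0.41 ± 0.10 (adjusted p = 0.00218). Lung also had the most myeloid marker RNA, and the part of myeloid cells in this level was not tested. Psmc2, another ATPase of the ring, had 134, 156 and 140 CPM in mTEC and 144, 151 and 157 CPM in cTEC, against 93.4, 123 and 129 CPM in skin, 114, 109 and 121 CPM in lung and 87.6, 89.4 and 76.0 CPM in colon. All thymic libraries were above all others, with a log2 fold change of 0.50 ± 0.08 (adjusted p = 1.08e-04). The lowest thymic library, at 134 CPM, stood just above the highest skin library, at 129 CPM. Over skin, inside the single kit, the value was 0.35 ± 0.12 (edgeR, adjusted p = 0.0171). Without skin replicate 1 it was 0.22 (adjusted p = 0.113).

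Psmc6, also an ATPase, had 74.9, 92.7 and 57.9 CPM in mTEC and 83.2, 75.8 and 66.6 CPM in cTEC, against 114, 129 and 108 CPM in colon, with skin and lung between 59.0 and 98.7 CPM. Its thymic log2 fold change of -0.32 ± 0.11 (adjusted p = 0.0211) was lost without mTEC replicate 1, mTEC replicate 3, cTEC replicate 3 or colon replicate 2, with values from -0.30 to -0.22, and also with DESeq2, its size factors, upper quartile scaling or no filter on low counts, with values from -0.26 to -0.17. Psmc5 was the base ATPase with the largest skin excess. It had 103, 110 and 112 CPM in mTEC and 112, 114 and 121 CPM in cTEC, against 128, 162 and 165 CPM in skin, and the log2 fold change was -0.44 ± 0.10 (adjusted p = 0.00161). Psmd4, a ubiquitin receptor of the base, had means of 122 CPM in mTEC and 142 CPM in cTEC, against 177 CPM in skin, and Psmd2, the scaffold on which ubiquitin-like domains dock, had 192 and 171 CPM, against 233 CPM in skin. Both were called lower in thymic epithelium.

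In the lid, Psmd8, a subunit added late in lid assembly, differed most between thymic epithelium and skin. It had 111, 112 and 110 CPM in mTEC and 93.2, 101 and 94.1 CPM in cTEC, against 211, 255 and 192 CPM in skin, 111, 106 and 116 CPM in lung and 126, 114 and 105 CPM in colon. Skin stood alone, with its lowest library well above the highest of the other groups. Thymic over skin was -1.09 ± 0.10 on the log2 scale, or 2.12-fold lower (adjusted p = 5.96e-07), and -1.12 without skin replicate 1. Psmd7 and Psmd11, further lid subunits, were also called lower in thymic epithelium than in skin. Psmd3 was called lower than in skin but higher than in the mean of the extrathymic groups, and its call against skin was lost with RSEM counts, with upper quartile scaling and without any of 11 single libraries, at -0.27 to -0.21 in those omissions. Psmd13 had 96.6, 101 and 97.8 CPM in lung, against 76.4, 65.1 and 68.5 CPM in colon, and its log2 fold change of 0.49 ± 0.18 (adjusted p = 0.0294) was lost without lung replicate 1, 2 or 3 or colon replicate 2 or 3, with values from 0.43 to 0.51. Psmd14, the deubiquitinase of the lid, passed neither the 5-group test nor any of the 4 comparisons, with group means from 60.5 to 74.1 CPM.

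The 20S assembly chaperones held the gene with the largest difference. Psmg4 (chr13:34162964-34178173, plus strand, GRCm38, with no overlapping gene) pairs with Psmg3 to build the alpha ring. It had 19.2, 22.3 and 21.9 CPM in mTEC, 24.4, 30.3 and 23.0 CPM in cTEC, 9.22, 10.3 and 10.01 CPM in skin, 4.80, 3.53 and 4.12 CPM in lung and 5.68, 5.10 and 4.82 CPM in colon. The thymic libraries lay above skin, and skin above lung and colon, with no overlap between the 3 levels. Thymic over extrathymic epithelium was 1.97 ± 0.12 on the log2 scale, or 3.91-fold (adjusted p = 3.18e-09), and thymic over skin, inside the single kit, was 1.25 ± 0.17, or 2.37-fold (adjusted p = 2.44e-05). The RSEM estimate gave the same direction, and read counts were 0.996 to 1.04 of the RSEM estimate in the group means.

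Its partner Psmg3 did not follow. Psmg3 had 5.98, 5.02 and 7.03 CPM in mTEC, 6.52, 4.62 and 6.22 CPM in cTEC, 6.02, 6.19 and 6.07 CPM in skin, 5.44, 5.38 and 5.11 CPM in lung and 3.89, 5.07 and 4.15 CPM in colon, and passed none of the tests. Per length, Psmg4 TPM over Psmg3 TPM averaged 3.89 ± 0.613 in mTEC, 4.74 ± 0.954 in cTEC, 1.66 ± 0.119 in skin, 0.855 ± 0.188 in lung and 1.16 ± 0.21 in colon (SD, n = 3 each). Psmg3 is the least abundant of the 38 genes in reads, with 64 to 186 per library, so its levels carry the largest counting error. It overlaps Gm26938 on the same strand, and its read counts were 0.575 to 0.629 of the RSEM estimate in the group means. With RSEM counts it was not called in any of the 4 comparisons either.

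The other chaperone pair, Psmg1 and Psmg2, also acts on the alpha ring. Psmg1 had 13.0, 15.9 and 15.5 CPM in mTEC and 16.2, 19.6 and 15.9 CPM in cTEC, against 22.4, 24.1 and 21.6 CPM in skin, 11.2, 10.7 and 12.3 CPM in lung and 20.5, 19.4 and 16.6 CPM in colon. Its log2 fold change was -0.51 ± 0.14 for thymic over skin (adjusted p = 0.00618) and -0.72 ± 0.16 for lung over colon (adjusted p = 0.00152). Psmg2 went the other way between lung and colon, with 17.7, 17.8 and 20.6 CPM in lung, against 13.7, 13.9 and 11.8 CPM in colon, a log2 fold change of 0.51 ± 0.15 (adjusted p = 0.0108) that was lost without lung replicate 3 or colon replicate 3, at 0.44 in both. Psmg1 and Psmg2 act as 1 dimer, and their lung over colon changes had opposite signs. Against skin their signs were the same, with Psmg2 at -0.38 ± 0.13 for thymic over skin (edgeR, adjusted p = 0.0225). That Psmg2 call was lost without mTEC replicate 1 or 2, cTEC replicate 1 or skin replicate 2.

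Pomp, which starts beta ring assembly, had 94.4, 96.2 and 95.1 CPM in mTEC, 107, 121 and 120 CPM in cTEC, 122, 149 and 117 CPM in skin, 79.1, 81.0 and 81.3 CPM in lung and 71.3, 61.1 and 57.9 CPM in colon. Thymic libraries lay above all lung and colon libraries, and the cTEC libraries overlapped with skin. Its log2 fold change was 0.27 ± 0.08 for thymic over extrathymic (adjusted p = 0.00714), -0.30 ± 0.10 for thymic over skin (adjusted p = 0.0212) and 0.34 ± 0.12 for lung over colon (adjusted p = 0.0251). The skin call was lost without mTEC replicate 1 or 2, cTEC replicate 1 or skin replicate 2, with values from -0.28 to -0.18. The lung call was lost without lung replicate 1, 2 or 3 or colon replicate 2 or 3, with values from 0.28 to 0.36.

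Between thymic and extrathymic epithelium the 19S assembly chaperones had 0 of 3 genes called in edgeR with TMM scaling, and 0 at an unadjusted p under 0.05. Psmd10 was called higher by DESeq2, and by edgeR with DESeq2 size factors or upper quartile scaling. Psmd9 had 38.6, 36.4 and 34.7 CPM in lung, against 22.9, 20.6 and 20.6 CPM in colon, a log2 fold change of 0.77 ± 0.16 (adjusted p = 6.72e-04). Psmd5 and Psmd10, also called gankyrin, rested on skin replicate 1. Psmd5 had 30.3, 30.7 and 34.8 CPM in mTEC and 40.8, 38.6 and 42.6 CPM in cTEC, against 9.22, 25.5 and 32.6 CPM in skin. Psmd10 had 27.3, 25.3 and 25.7 CPM in mTEC and 18.9, 17.99 and 16.1 CPM in cTEC, against 8.94, 14.7 and 20.9 CPM in skin. Both were lowest in skin replicate 1 by a wide margin. Thymic over skin was 0.68 ± 0.26 for Psmd5 (adjusted p = 0.0350) and 0.52 ± 0.20 for Psmd10 (adjusted p = 0.0367). Without skin replicate 1 it was 0.31 for Psmd5 (adjusted p = 0.0579) and 0.27 for Psmd10 (adjusted p = 0.166). The Psmd5 call was also lost without mTEC replicate 3, at 0.67, and the Psmd10 call without mTEC replicate 1, cTEC replicate 1 or 2 or skin replicate 2, at 0.52 to 0.54. With same-numbered mTEC and cTEC libraries as a replicate block both calls were lost, at 0.68 for Psmd5 (adjusted p = 0.0529) and 0.52 for Psmd10 (adjusted p = 0.0525).

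Psme4 encodes PA200, a single-chain cap known from the degradation of acetylated histones in the testis. It was the gene with the largest fall in thymic over extrathymic epithelium, a comparison in which lung and colon differ in kit. It had 65.4, 68.9 and 48.1 CPM in mTEC, 50.8, 39.3 and 43.5 CPM in cTEC, 67.8, 71.1 and 90.6 CPM in skin, 117, 111 and 103 CPM in lung and 208, 212 and 184 CPM in colon. Colon lay above lung and lung above all others, while mTEC and skin overlapped. Thymic over extrathymic epithelium was -1.20 ± 0.11 on the log2 scale, or 2.29-fold lower (adjusted p = 1.76e-07). Thymic over skin, inside the single kit, was -0.56 ± 0.14 (adjusted p = 0.00261). That fall was smaller than those of Psmd8, at -1.09, and Psmb3, at -0.62. For Psme4, lung over colon was -0.86 ± 0.16 (adjusted p = 2.69e-04). The mTEC over cTEC value was 0.45 ± 0.16 (adjusted p = 0.0532).

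Psmf1 encodes PI31, which inhibits the core in the test tube. It had 41.5, 36.4 and 48.7 CPM in mTEC and 44.3, 43.5 and 50.7 CPM in cTEC, against 31.2, 36.1 and 21.2 CPM in skin, 44.1, 42.4 and 45.4 CPM in lung and 30.8, 28.7 and 27.8 CPM in colon. The thymic and lung libraries overlapped and stood above skin and colon. The log2 fold change was 0.40 ± 0.11 for thymic over extrathymic (adjusted p = 0.00591), 0.59 ± 0.16 for thymic over skin (adjusted p = 0.00471) and 0.59 ± 0.17 for lung over colon (adjusted p = 0.00852).

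**Figure D4:**
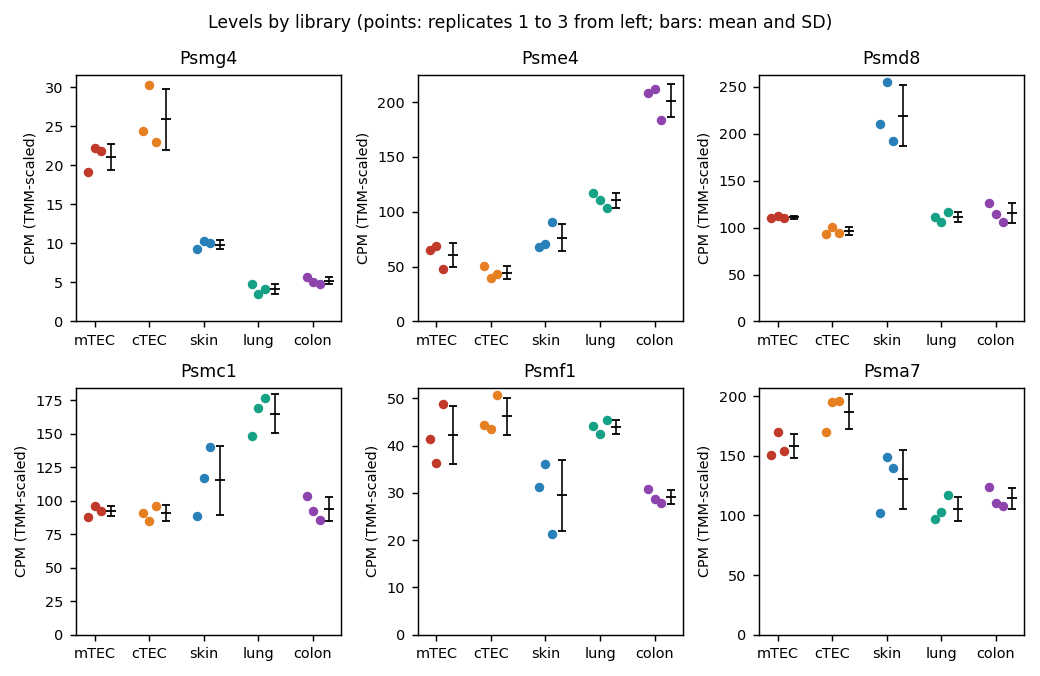
CPM of 6 genes by group, with 1 point per library and bars for the mean and SD of 3 libraries. Psmg4 stands at 19.2 CPM or more in the thymic libraries and at 10.3 CPM or less elsewhere, Psme4 peaks in colon, Psmd8 in skin and Psmc1 in lung.

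Ring and cap did not keep a constant ratio. Summed TPM of the 11 ring genes over that of the 17 cap genes was 1.26 ± 0.01 in mTEC, 1.39 ± 0.0079 in cTEC, 1.09 ± 0.12 in skin, 0.972 ± 0.035 in lung and 1.19 ± 0.052 in colon (SD, n = 3 each). This ratio lies within a library and does not depend on scaling between libraries. It weighs abundant genes most, and Psmb4, the most abundant, had 406 TPM in mTEC and 571 TPM in cTEC. Lung and colon also differ from the other groups in kit. The 3 cTEC libraries, at 1.39 to 1.40, lay above the 3 mTEC libraries, at 1.25 to 1.26, and those just above the highest of the skin, lung and colon libraries, which ran from 0.947 to 1.24. The same ratio from geometric mean CPM without Psma3 and Psma5 was 1.11 ± 0.042 in mTEC, 1.21 ± 0.015 in cTEC, 0.996 ± 0.11 in skin, 0.873 ± 0.025 in lung and 1.05 ± 0.046 in colon. On that scale mTEC, at 1.07 to 1.15, overlapped with colon, at 1.002 to 1.093, and with skin, at 0.872 to 1.07. The ratio was defined after the values had been seen, and no test was made.

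**Figure D5:**
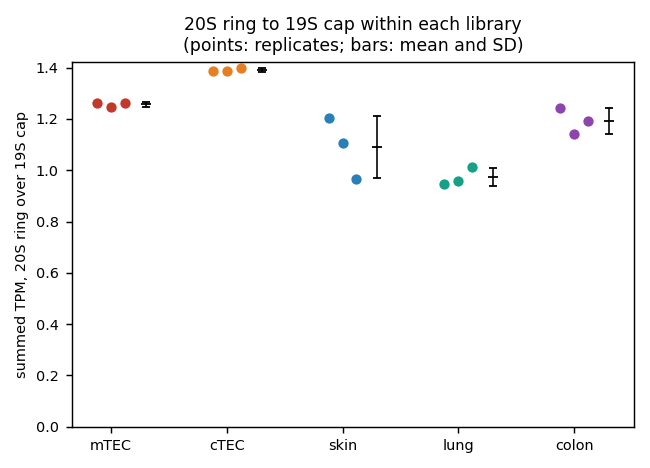
Summed TPM of the 11 20S ring genes over the summed TPM of the 17 19S cap genes in each library, by group, with bars for the mean and SD of 3 libraries. The cTEC libraries are highest, at 1.39 to 1.40, and the lung libraries lowest, at 0.947 to 1.01.

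Further genes of the pathway were taken from lists chosen by name. All 10 exchangeable catalytic subunits and 11S cap genes passed the 5-group test, against 90.6% of all genes, and thymic over extrathymic epithelium had 7 of 10 higher and 2 lower, against 37.3% of all genes higher and 26.9% lower. Psmb9, an immunoproteasome subunit, had a log2 fold change of 3.70 ± 0.14 (adjusted p = 3.91e-11), and Psme3, the nuclear 11S cap, -0.88 ± 0.09 (adjusted p = 8.64e-07). Of 21 proteasome-associated factors tested, 6 were higher and 10 lower, or 76.2% called, against 64.2% of all genes. Akirin2, which brings proteasomes into the nucleus, was higher at 0.63 ± 0.08 (adjusted p = 4.03e-06). Zfand5, which stimulates the 26S proteasome, was lower at -1.52 ± 0.15 (adjusted p = 5.80e-07), with 138, 182 and 97.2 CPM in mTEC and 121, 109 and 74.1 CPM in cTEC, against 605, 606 and 560 CPM in colon. Adrm1, a ubiquitin receptor of the cap, was higher at 0.84 ± 0.08 by read counts and at -0.0089 by RSEM (adjusted p = 0.926). Of the 6 ubiquitin genes and E1 enzymes, 3 were higher and 1 lower, or 66.7% called, close to the share of all genes, and Rps27a was 3.18 by read counts and 0.54 by RSEM.

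Nfe2l1 is the factor known to drive proteasome genes when proteasome activity is short, and it differed between mTEC and cTEC. Nfe2l1 had 625, 696 and 630 CPM in mTEC and 404, 409 and 377 CPM in cTEC, against 367, 367 and 301 CPM in skin, 313, 327 and 301 CPM in lung and 274, 280 and 269 CPM in colon. Every mTEC library lay above every cTEC library, and every cTEC library above all others. Its log2 fold change was 0.71 ± 0.13 for mTEC over cTEC (adjusted p = 0.00140) and 0.71 ± 0.08 for thymic over extrathymic epithelium (adjusted p = 2.01e-06). The part of Nfe2l1 in the levels of the 38 genes was not tested. Nfe2l2, its relative in the oxidative stress response, was lower in thymic than in extrathymic epithelium at -0.69 ± 0.11 (adjusted p = 8.29e-05), but inside the single kit thymic over skin was 0.19 ± 0.15 (adjusted p = 0.280). Of the 8 genes for transcription of proteasome genes, 2 were higher and 4 lower, or 75.0% called, against 64.2% of all genes. The germ cell subunit Psma8 had 2 reads in all mTEC libraries, 18 in all lung libraries and 0 elsewhere, and was not tested.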

How the data were processed

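RNA of sorted epithelial cells was extracted with TriZol and RNeasy columns and sequenced after poly(A) selection, per the labels. Per the submitters' processing notes, the authors used bcl2fastq 2.20, STAR 2.5.1b on GRCm38 and RSEM 1.2.28; the sources used here do not name the gene annotation. The deposited read counts per gene have 1 unstranded and 2 stranded columns, and the sense column was used, with a total 8.43 to 19.3 times that of the opposite strand. The deposited RSEM tables give expected counts, rounded here to whole numbers as an alternative, TPM, and transcript lengths in bases (unit score), as the authors deposited them.

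Symbols came from GENCODE M21, which held 50376 of 50600 identifiers. One model with a term per group was fitted to the 15 libraries in edgeR 4.0.16 (TMM scaling, filterByExpr, quasi-likelihood F-test, Benjamini-Hochberg adjustment over 19107 genes, called at an adjusted p under 0.05); a standard error is the log2 fold change divided by the square root of F. The common biological coefficient of variation was 28.1%. The script was tested on simulated counts. Alternatives were DESeq2 1.42.0, other scalings, no filter, RSEM counts, a 1.5-fold test (glmTreat), the compared groups alone, a replicate block and leaving out each library. The 3 same-numbered pairs of mTEC and cTEC libraries deviated together from their group means (r = 0.272 to 0.397 across genes; -0.329 to 0.0508 for other numbers), a pairing read from the data and not stated in the labels, so a block for mTEC and cTEC alone was added after the data were seen. Of 27 other same-numbered pairs, 2 had r over 0.1. Replicates are separate pools, so the p-values measure the spread between pools.

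The genes and lists were chosen with earlier results of these data known. Single fold changes are the 5 largest in each direction among called genes, plus Pomp, Psme4, Psmf1, Psma7 and Psmd10 where called, and up to 2 genes per direction of each further list by smallest p; Paaf1 was not found by symbol. Levels of Psmd2, Psmd4, Psmd14, Psmg3 and Psmc2 were added after their values had been seen. The fold changes of Psmg2 and Psmc2 over skin were likewise added later.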

Additional observations from a re-analysis of the deposited data

How the results depend on the processing

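Of the 101 fold changes of called genes named here or in the same lists, 61 kept their call under every alternative other than the 1.5-fold test, and 1 reversed, Adrm1 in thymic over extrathymic epithelium, at -0.0089 with RSEM counts. Leaving out each library in turn, thymic over extrathymic epithelium had 12 to 14 genes higher, 3 to 7 lower and a median of 0.06 to 0.16; thymic over skin 2 to 8 higher, 10 to 16 lower and a median of -0.18 to -0.0083; mTEC over cTEC 0 to 2 higher, 0 to 1 lower and a median of -0.11 to -0.02; lung over colon 3 to 8 higher, 4 to 6 lower and a median of -0.05 to 0.03. The 5-group test called 27 to 32. Tested against a 1.5-fold change, thymic over extrathymic epithelium had 2 higher and 1 lower, thymic over skin 1 and 1, mTEC over cTEC 0 lower, and lung over colon 0 higher and 1 lower. Without the filter on low counts, thymic over skin had 3 lower, mTEC over cTEC 0 lower and lung over colon 3 higher. With the compared groups alone, thymic over skin had 2 higher, mTEC over cTEC 1 higher and lung over colon 10 lower. For mTEC over cTEC, DESeq2 called 3 higher, DESeq2 size factors 1 and upper quartile scaling 1. For thymic over extrathymic epithelium, DESeq2 and DESeq2 size factors each gave 18 higher and 3 lower, and upper quartile scaling 19 and 3. Upper quartile scaling moved the thymic over extrathymic median of the 38 genes to 0.27 and that of all genes to 0.30. The cause of these shifts was not tested.

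Over all genes, the higher share of mTEC over cTEC calls was 61.7%, against 72.2% with no filter and 73.3% in the 1.5-fold test, which called 7958, 8247, 2329 and 8498 genes in the 4 comparisons in the order above, against 12268, 11695, 4714 and 11204. Without mTEC replicate 1 the mTEC over cTEC count was 2408, and without cTEC replicate 2 it was 3075. With a replicate block for mTEC and cTEC pairs, thymic over extrathymic epithelium had 13 genes higher and 4 lower, thymic over skin 5 and 14, and mTEC over cTEC 0 and 1; apart from Psmd5 and Psmd10 against skin, it changed no call among the 38 genes. With a replicate block over all groups, the counts were 13 and 4, 7 and 14, 0 and 1, and, for lung over colon, 7 and 5, with 30 in the 5-group test. Depth limits Psmg3 most, with 64 reads in its lowest library.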

Other observations

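The catalytic slots of the core, which the 38 genes leave out, were read against the ring around them, as a description with no test. The summed TPM of Psmb5, Psmb8 and Psmb11, which share the chymotrypsin-like slot, over the median TPM of the 11 ring genes was 1.76 ± 0.24 in mTEC, 2.24 ± 0.24 in cTEC, 1.51 ± 0.078 in skin, 0.887 ± 0.045 in lung and 0.701 ± 0.073 in colon (SD, n = 3 each). Psmb5 made up 37.4% ± 1.77 of that sum in mTEC and 30.4% ± 2.34 in cTEC, against 72.8% ± 7.29 in skin, 82.2% ± 0.273 in lung and 86.3% ± 2.07 in colon. For Psmb6 and Psmb9, which share the caspase-like slot, the ratio was 2.56 ± 0.13 in mTEC and 3.59 ± 0.32 in cTEC, against 1.91 ± 0.13 in skin, 1.22 ± 0.053 in lung and 1.08 ± 0.17 in colon. For Psmb7 and Psmb10, of the trypsin-like slot, it was 2.49 ± 0.37 in mTEC and 3.23 ± 0.71 in cTEC, against 1.18 ± 0.092 in skin, 1.02 ± 0.054 in lung and 1.41 ± 0.13 in colon. In all 3 ratios every mTEC and every cTEC library lay above every skin, lung and colon library. The margin was small for the chymotrypsin-like slot, with the lowest mTEC library at 1.595 and the highest skin library at 1.580.

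Among the caps, Psme4 TPM was 1.94% ± 0.528 of the summed TPM of Psme1 and Psme2, the interferon-inducible 11S cap, in mTEC and 2.11% ± 0.435 in cTEC, against 3.78% ± 1.60 in skin, 8.02% ± 0.930 in lung and 12.2% ± 1.83 in colon.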
